A study of Mus musculus with 4 samples.

Results

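The heat shock and DnaJ chaperone genes of the mouse were described in single-nucleus RNA sequencing of brain without cerebellum. Members were chosen by name: symbols beginning Hspa, Hspb, Hspd, Hspe, Hsph or Hsp90, and symbols beginning Dnaja, Dnajb or Dnajc followed by a number, with pseudogenes left out. The rule found 74 of the 32285 genes in the deposited tables. They comprised 14 HSP70 and HSP110 genes, 3 HSP90 genes, 7 small heat shock proteins, the 2 mitochondrial chaperonin genes, 4 DNAJA, 13 DNAJB and 28 DNAJC genes, and 3 genes that share only the name pattern (Hspbp1, Hspbap1 and Hspb11).

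All nuclei came from wild-type C57BL/6 mice aged 10 weeks, and a droplet kit that counts transcripts by unique molecular identifiers (UMIs) gave 4 libraries. Tissue was taken either post-mortem, after cervical dislocation, or in vivo, by craniotomy under isoflurane, and the nuclei were left unfixed or held for 30 min in 80% methanol at -20 °C. The 4 groups are therefore post-mortem unfixed, post-mortem methanol, in vivo unfixed and in vivo methanol, and values for 4 libraries are given in that order throughout. Each group holds 1 library. No test between groups was made, a ratio compares 2 libraries and not 2 conditions, and harvest cannot be told apart from the animal or the piece of tissue.

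HSP70 proteins bind short hydrophobic stretches of unfolded proteins, J-domain (DNAJ) proteins deliver clients to HSP70 and stimulate its ATPase, and HSP90 acts later on signalling proteins and receptors. Separate members serve the cytosol, the endoplasmic reticulum and the mitochondrion. In neurons, Hspa8 and the J-domain protein auxilin (Dnajc6) remove clathrin from endocytic vesicles, and cysteine string protein (Dnajc5) protects synaptic vesicle proteins. Heat shock factor 1 drives the inducible cytosolic genes, and the unfolded protein response drives those of the endoplasmic reticulum.

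Promoter sequences are shown for members whose windows held a textbook element of one of these responses. Of the 5 members higher after methanol in the first comparison below, 3 work in the endoplasmic reticulum and 2 are listed as heat shock factor 1 targets. Whether either response had a part in those ratios was not tested. Windows run from 250 bases before to 50 after the RefSeq start (GRCm38.p6), and 60 of the 74 members were in that table. Hspa8, Hsp90aa1 and Hspa13, all higher after methanol, were not in it, so their windows were not searched for either element. The ER stress element, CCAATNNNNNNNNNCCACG on either strand, was found in 39 of 32851 promoter windows (0.119%), among them those of the members Hspa5, Hsp90b1 and Dnajc3. Capitals mark the element. Only stretches outside annotated exons are shown, or 30 bases around the element where an annotated exon covers it.
Hspa5, chr2:34772020-34772049, plus strand: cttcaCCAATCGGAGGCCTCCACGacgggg
Hsp90b1, chr10:86705510-86705694, minus strand: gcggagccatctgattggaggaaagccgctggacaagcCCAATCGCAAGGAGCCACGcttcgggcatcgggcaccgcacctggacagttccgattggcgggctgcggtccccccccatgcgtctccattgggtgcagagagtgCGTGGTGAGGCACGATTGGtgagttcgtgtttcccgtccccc
Dnajc3, chr14:118937682-118937931, plus strand: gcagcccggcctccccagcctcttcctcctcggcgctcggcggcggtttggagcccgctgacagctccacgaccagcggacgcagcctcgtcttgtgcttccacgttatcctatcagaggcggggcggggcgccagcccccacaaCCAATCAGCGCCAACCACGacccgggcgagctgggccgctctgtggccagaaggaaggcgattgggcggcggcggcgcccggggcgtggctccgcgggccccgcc
Hsp90b1 held 2 copies, 1 on each strand. The same element was found in 5 of 11 genes in the table from a list of endoplasmic reticulum lectins and disulfide isomerases (Calr, Canx, Creld2, Ero1b and Pdia6). The heat shock element, GAANNTTCNNGAA or its reverse complement, was found in 198 windows (0.603%) and in the members Dnajb6, Hspd1, Hspe1 and Hsph1. It is shown for Hspe1, the mitochondrial co-chaperonin, whose start lies back to back with that of Hspd1, and there the 2 matches, 1 on each strand, overlap.
Hspe1, chr1:55088053-55088082, plus strand: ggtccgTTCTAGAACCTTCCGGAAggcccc
A match describes these letters only and is not evidence of binding.

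After filtering, 12483, 9826, 15134 and 6833 nuclei were kept, with 51528633, 67205676, 52116564 and 59962448 UMIs. Depth per nucleus differed with fixation, with medians of 3785 and 6300.5 UMIs in the post-mortem pair and 3024.5 and 7829 in the in vivo pair. Any 2 libraries shared 61 to 210 cell barcodes. Levels are counts of UMIs scaled to the total of the library (CPM), and a member counts as measured at a mean of 10 CPM or more over the 4 libraries. Of the 74 members, 47 were measured, 11 lay between 1 and 10 CPM and 16 below 1 CPM. All members together took 0.287%, 0.302%, 0.266% and 0.281% of UMIs. Because the strand setting of the counting is not given in the sources used here, the 28 members with an overlapping gene on the opposite strand are uncertain, among them Hspd1 and Hspe1, Dnajc1, Dnaja3, Dnajc14 and Dnajc30.

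The inducible HSP70 genes were below 1 CPM in every library. Hspa1a, the classical stress-induced HSP70, was at 0.369, 0.789, 0.403 and 0.700 CPM, from 19, 53, 21 and 42 UMIs. Its fixation log2 ratios were 1.07 (95% interval 0.32 to 1.94) and 0.78 (0.01 to 1.63), at levels below the limit for calls. Its near-identical copy Hspa1b, whose reads may be split with it, held 0, 4, 1 and 6 UMIs, and the count of 0 allows up to 0.0582 CPM. Hspb1, the small heat shock protein HSP27, was at 0.369, 0.625, 0.403 and 0.450 CPM. None of the 7 small heat shock proteins reached a mean of 10 CPM, and Hspb7 and Hspb9 had at most 3 UMIs in any library. Dnajb3 had no UMI in any library, which allows 0.0446 to 0.0582 CPM.

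The first comparison was fixation, methanol over unfixed, in each harvest. A member was called where both pairs differed by 1.5-fold or more in one direction. Of 47 measured members, 5 were called higher, against 3.51% of all 9789 measured genes, and 0 were called lower, against 4.29%. The 5 were Hspa5, Hspa13, Hsp90b1, Hspa8 and Hsp90aa1, of which 3 work in the endoplasmic reticulum. At a limit of 2-fold no member was higher (against 0.306% of all genes) and none lower (against 2.22%).

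Hspa5 (BiP, chr2:34771970-34777547, mm10), the HSP70 of the endoplasmic reticulum, was at 67.3, 125, 46.2 and 85.2 CPM. Both methanol libraries lay above their unfixed partners. The log2 ratios were 0.89 (95% interval 0.83 to 0.95) and 0.88 (0.81 to 0.95), where each interval covers counting error only. Hsp90b1 (GRP94, chr10:86690209-86705509), the HSP90 of the same compartment, was at 90.1, 148, 73.2 and 118 CPM. Its log2 ratios were 0.72 (0.67 to 0.77) and 0.69 (0.64 to 0.75), and again both methanol libraries lay above both unfixed ones. Hspa13 (chr16:75745431-75767104), a microsomal HSP70-like ATPase, was at 13.4, 22.7, 10.7 and 18.0 CPM, with log2 ratios of 0.75 (0.62 to 0.89) and 0.75 (0.61 to 0.91).

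The other 2 called members are cytosolic. Hspa8 (HSC70, chr9:40800984-40810087), the constitutive HSP70, was at 87.2, 132, 75.6 and 118 CPM, and its log2 ratios were 0.59 (0.54 to 0.65) and 0.65 (0.59 to 0.70). Hsp90aa1 (chr12:110690605-110702728), the inducible cytosolic HSP90, was at 48.5, 73.1, 47.8 and 74.0 CPM, and its log2 ratios were 0.59 (0.52 to 0.66) and 0.63 (0.56 to 0.70). Its constitutive paralogue Hsp90ab1 was at 147, 156, 135 and 152 CPM, with log2 ratios of 0.09 and 0.17, and was not called. Both called genes lie just past the 1.5-fold limit, and Dnajb4 (0.50 and 0.49) and Dnajb11 (0.40 and 0.52) lie just short of it.

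**Figure D1:**
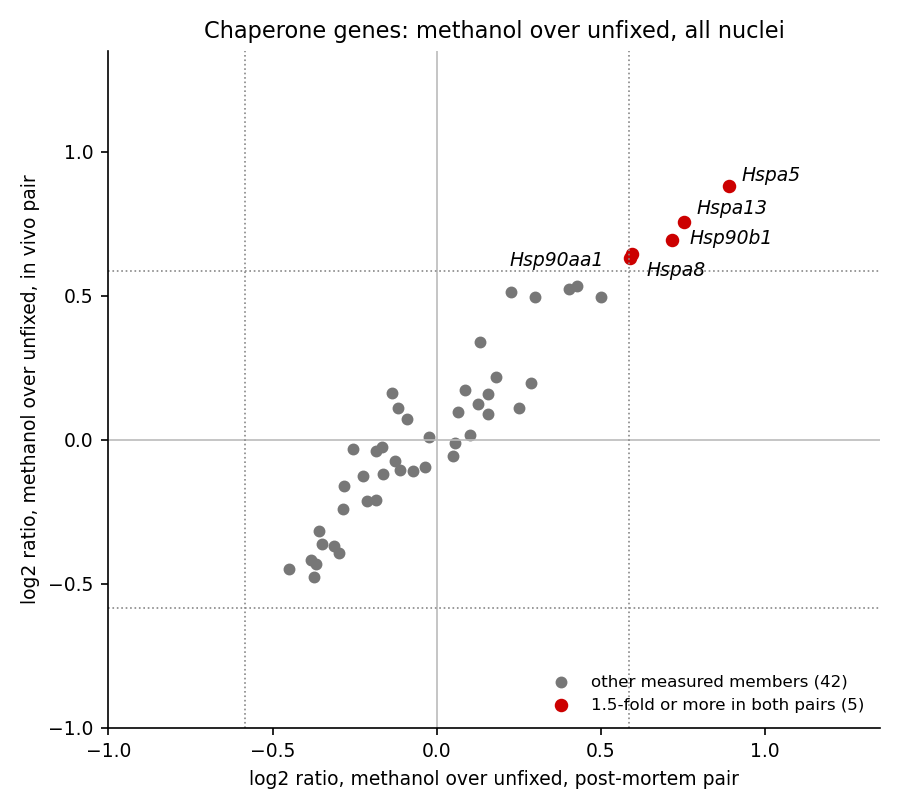
Log2 ratio of methanol over unfixed in all kept nuclei for the 47 measured members, post-mortem pair on the x axis and in vivo pair on the y axis, 1 point per gene. Dotted lines mark 1.5-fold, and the 5 named genes in red lie past it in both pairs, with Hspa5 at 0.89 and 0.88.

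With another weighting of the nuclei 3 of these calls were lost. When 7 marker-gated cell classes were given equal weight in every library, which also leaves out the nuclei that entered no class, Hspa5 (0.63 and 0.82) and Hsp90b1 (0.73 and 0.62) stayed past the limit. Hspa8 then gave 0.29 and 0.41, Hsp90aa1 0.44 and 0.34, and Hspa13 0.26 and 0.70, none of them called, whereas Dnajb9 and Dnajc30 passed. In nuclei of 1000 UMIs or more the same 5 members were called.

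Over all measured members no common direction was seen. The median log2 ratio was -0.04 in the post-mortem pair and 0.01 in the in vivo pair, beside -0.02 and -0.02 over all measured genes. Above 0 in both pairs were 20 of 47 members (42.6%, against 40.9% of all genes), and below 0 in both were 21 (44.7%, against 46.9%).

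Among the endoplasmic reticulum members, 9 of 10 were measured and 3 were called higher, against 3.51% of all genes, with median log2 ratios of 0.13 and 0.12, beside -0.02 and -0.02 over all genes. None was called lower, against 4.29%. None of the J-domain proteins of this compartment was called. Dnajb11 (ERdj3), a co-chaperone for secreted proteins, was at 23.9, 31.5, 18.9 and 27.1 CPM, higher in both methanol libraries but under the limit. Dnajc3 (p58IPK), an inhibitor of eIF2-alpha kinases, was at 47.9, 50.1, 39.6 and 42.3 CPM (log2 0.07 and 0.10). Dnajb12, a membrane-bound J-protein of the endoplasmic reticulum, had log2 ratios of -0.45 and -0.45. Dnajb14 had -0.04 and -0.09, Dnajc1 0.06 and -0.01, and Dnajc10, which reduces disulfides, 0.13 and 0.12. Dnajb9 (ERdj4), just under the level limit, was at 9.12, 13.7, 5.58 and 11.0 CPM, with log2 ratios of 0.58 and 0.97.

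Genes that work beside these members in the same compartment were called in both directions. Of 11 measured lectins and disulfide isomerases, 2 were called higher (against 3.51% of all genes) and 1 lower (against 4.29%). Calr (calreticulin), a calcium-binding lectin chaperone, was at 47.8, 90.9, 44.8 and 80.2 CPM, with log2 ratios of 0.93 and 0.84. Pdia6, a disulfide isomerase, had log2 ratios of 0.62 and 0.62. Manf, a secreted protein of the unfolded protein response, was lower, at 73.5, 38.3, 63.4 and 31.5 CPM, with log2 ratios of -0.94 and -1.01.

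**Figure D2:**
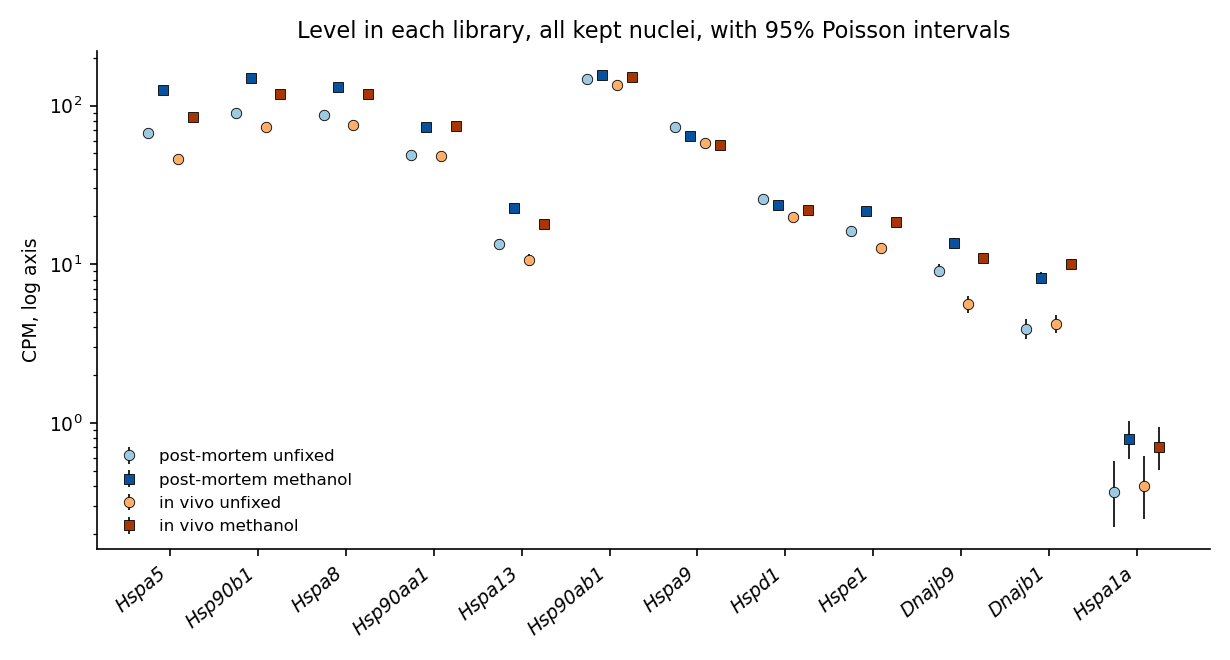
CPM on a log axis in the 4 libraries (all kept nuclei) for 12 members, with exact 95% Poisson intervals as bars. Hspa5, Hsp90b1, Hspa8, Hsp90aa1 and Hspa13 are higher in each methanol library than in its unfixed partner, while Hsp90ab1 and Hspa9 lie close together.

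Among the 13 members known as targets of heat shock factor 1 in the cytosol or mitochondrion, 9 were measured and 2 (Hspa8 and Hsp90aa1) were called higher (against 3.51% of all genes), and 7 were above 0 in both pairs (77.8%, against 40.9%). The medians were 0.25 and 0.22. Dnajb1 (HSP40), the main J-protein partner of inducible HSP70 and below 10 CPM, was at 3.92, 8.17, 4.20 and 9.99 CPM. Its log2 ratios were 1.06 (0.82 to 1.30) and 1.25 (1.02 to 1.48), and both methanol libraries lay above both unfixed ones. Hsph1 (HSP110), a nucleotide exchange factor of HSP70, was at 26.5, 31.6, 28.3 and 30.5 CPM, and Hspa4l, of the same family, at 75.0, 85.1, 61.6 and 71.7 CPM. Neither was called. Of a list of heat shock factors (Hsf1, Hsf2, Hsf4 and Hsf5) with the binding protein gene Hsbp1, 4 genes were measured. None of them was called, against 3.51% of all genes higher and 4.29% lower.

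The mitochondrial members gave no call in 8 measured genes, against 3.51% of all genes higher and 4.29% lower. Hspd1 (HSP60), the chaperonin ring, was at 25.9, 23.6, 19.7 and 22.1 CPM, and its log2 ratios (-0.13 and 0.16) had opposite signs. Hspe1 (HSP10), its lid, was at 16.2, 21.8, 12.7 and 18.4 CPM, with log2 ratios of 0.43 and 0.53. Hspa9 (mortalin), the import motor, was at 73.3, 64.5, 58.2 and 56.7 CPM, and its J-protein partner Dnaja3 at 40.2, 30.9, 34.6 and 25.9 CPM.

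None of the J-proteins outside these compartments was called, against 3.51% of all genes higher and 4.29% lower. Dnajc6 was at 250, 246, 265 and 267 CPM, with log2 ratios of -0.02 and 0.01. Dnajc5 was at 62.5, 69.7, 61.3 and 68.4 CPM (0.16 and 0.16), and Dnajc13, an endosomal J-protein, at 78.2, 81.0, 89.9 and 86.3 CPM (0.05 and -0.06). Of the 5 members that act on RNA, ribosomes or splicing, 4 were below 0 in both pairs and none was called, among them the splicing-linked Dnajc8 (-0.36 and -0.32). The 28 DNAJC genes had 20 measured members and no call, against the same shares of all genes.

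None of the 17 measured HSP90 co-chaperones and none of the 14 measured HSP70 co-chaperones and exchange factors was called. Over all genes 3.51% were called higher and 4.29% lower, so few calls would fall in lists of this size. The 14 subunits of the cytosolic chaperonin TRiC and of prefoldin, which fold actin and tubulin, also had no call, and 11 were above 0 in both pairs (78.6%, against 40.9% of all genes), with medians of 0.20 and 0.36. Cryab (alpha-B-crystallin), a small heat shock protein named apart from the Hspb series, was at 11.8, 16.2, 8.67 and 11.4 CPM.

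The length of the gene moved with these ratios. The 5 called members span 5.578 to 21.674 kb on the genome, with a median of 12.1 kb, and the other 42 measured members have a median of 30.6 kb. Across the 47 measured members, Spearman's rho of gene span with the fixation log2 ratio was -0.30 in the post-mortem pair and -0.47 in the in vivo pair, and across all 9789 measured genes it was -0.16 and -0.29. These points are genes of the same 4 libraries and not independent. Of the 15 members up to 20 kb, 8 were above 0 in both pairs, against 12 of 32 longer ones, and over all measured genes the counts were 1657 of 3003 and 2350 of 6786. The part of gene span in the result was not tested.

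The second comparison was harvest, in vivo over post-mortem, for unfixed and for methanol nuclei. It uses the same 4 libraries as the first. No member was called higher, against 1.64% of all measured genes, and none lower, against 1.1%. Below 0 in both pairs were 32 of 47 members (68.1%, against 59.5% of all genes), and the medians were -0.17 and -0.09, beside -0.10 and -0.09. Hspa5 was nearest to the limit, with log2 ratios of -0.54 and -0.55. Of the 9 measured endoplasmic reticulum members, 8 were below 0 in both pairs (88.9%), as were 7 of 8 mitochondrial members (87.5%) and 14 of 14 TRiC and prefoldin subunits. Gene span moved with the harvest ratios too. Across all 9789 measured genes, Spearman's rho of span with the harvest log2 ratio was 0.54 in the unfixed pair and 0.39 in the methanol pair. Across the 47 measured members it was 0.47 and 0.23. The part of gene span in these counts was not tested. Dnajc30 (-0.58 and -0.38), a mitochondrial J-protein, and Dnajc19 (-0.50 and -0.36), of the import motor, had the lowest ratios of the mitochondrial list in both pairs. Hspb3, a small heat shock protein at 2.31, 3.66, 0.883 and 1.67 CPM, had ratios of -1.38 and -1.13 and was below the level limit.

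Cell classes were then separated with markers that include no member. A nucleus entered a class when at least 3 different markers of the class were detected and their number was at least 2 times that of the next class. Of the kept nuclei, 45.3%, 54.2%, 40.5% and 53.9% were gated, and 7 classes were used. Among genes at 100 CPM or more in a class, the 10 leading genes by fold held at least 1 marker of that class in each of the 7. Examples were Slc17a7 in the excitatory class, Aqp4 in astrocytes, Pdgfra in oligodendrocyte precursors and Inpp5d in microglia. These markers set the gate, so their rank cannot check the classes. A gate is a range and not a type: of the 479, 595, 830 and 882 excitatory-gated nuclei, 426, 533, 700 and 758 lay just inside the limit. In these nuclei the median nucleus held 6, 7, 6 and 11 UMIs of medium spiny markers and 3, 5, 6 and 14 of oligodendrocyte precursor markers beside 8, 11, 7 and 16 of its own. In the in vivo unfixed and in vivo methanol libraries, precursor markers took 0.149% and 0.165% of the UMIs of excitatory-gated nuclei and excitatory markers 0.134% and 0.122%. Precursor-gated nuclei held medians of 6, 10.5, 5 and 12 UMIs of interneuron markers beside 20, 30, 17 and 35 of their own. In the microglia-gated nuclei all medians for other classes were 0. Microglia-gated and oligodendrocyte-gated nuclei were shallow, with median UMIs of 932, 944, 781 and 1069 and of 1219, 1313, 927 and 1410.

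Members were compared between classes with edgeR's quasi-likelihood test on UMIs summed per class and library, each class against the mean of the other 6, with the library as a block and n = 4 libraries per class. The labels do not state whether the libraries came from separate animals, so p-values measure the spread between these libraries. Of the 57 members tested, calls (adjusted p under 0.05 and at least 2-fold) numbered 15 higher and 9 lower over the 7 classes. By class, 0% to 8.77% of members were called higher, against 7.41% to 14.5% of all genes tested. Called lower were 0% to 8.77% of members, against 2.51% to 17.5% of all genes. With library-size scaling in place of TMM the median of all genes shifted by up to 0.30 on the log2 scale, by class, and the class log2 differences below are on the TMM scale.

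Oligodendrocyte-gated nuclei had 5 members called higher, against 12.6% of all 15473 genes tested. Dnajb2, a J-protein with ubiquitin-interacting motifs, was at 203, 192, 160 and 167 CPM there and between 8.49 and 35.0 CPM in every library of the other 6 classes. The groups did not overlap, and the class log2 difference was 3.34 (edgeR adjusted p = 1.892e-25), higher in 4 of 4 libraries. Hsp90aa1 was at 90.2, 138, 107 and 142 CPM, with a log2 difference of 1.23 (edgeR adjusted p = 1.563e-12). Dnajb12 (1.09), Dnajc24 (1.03), which serves diphthamide synthesis, and Hspa2 (1.66) were the others. Hspa12a, an atypical HSP70, was lower by a log2 difference of -1.24, against 17.5% of all genes called lower.

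Astrocyte-gated nuclei had 3 members called higher, against 11.9% of all genes. Dnajc3 was at 119, 176, 104 and 169 CPM, with a log2 difference of 1.28 (edgeR adjusted p = 1.526e-12). In each library it was higher there than in every other class. Hspa2, an HSP70 best known from the testis, was at 8.83, 14.8, 6.04 and 13.5 CPM, with a log2 difference of 2.94 (edgeR adjusted p = 3.66e-06), and at 3.14, 6.27, 4.28 and 3.54 CPM in oligodendrocyte-gated nuclei. Both Hspa2 calls rest on few counts. All genes together held 792837, 880950, 827655 and 664600 UMIs in astrocyte-gated nuclei and 2228957, 2551604, 2104391 and 1695407 in oligodendrocyte-gated nuclei. In all nuclei the mean of Hspa2 was 1.77 CPM, below the level limit. Dnajc14 (1.11) also passed. Dnajc6 was lower (-1.19, against 7.47% of all genes called lower).

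Excitatory-gated nuclei had 4 members called higher, against 14.5% of all genes, and 0 lower, against 8.92%. Hspa12a was at 110, 93.0, 90.5 and 75.4 CPM there, with a log2 difference of 1.41 (edgeR adjusted p = 1.416e-13), above every other class in the same library. Dnajc21, a factor of ribosome assembly, was at 49.9, 47.9, 65.8 and 51.9 CPM (1.34), and at 14.5, 13.9, 16.9 and 14.9 CPM in medium spiny-gated nuclei. Dnajc6 was at 319, 277, 319 and 310 CPM (1.25), close to interneuron-gated nuclei at 317, 288, 324 and 289 CPM. Dnajb5 (1.21) was the fourth.

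Medium spiny-gated nuclei had Dnajc2, a ribosome-associated J-protein, called higher, at 63.8, 56.4, 59.2 and 60.0 CPM (log2 difference 1.15, edgeR adjusted p = 7.72e-14), against 14.5% of all genes. Hspb3 was called lower there (-1.99), against 11.6%, on few counts: all 7 small heat shock proteins together held 19, 15, 8 and 7 UMIs. Its difference was -1.93 in precursors, -1.55 in astrocytes, -0.91 in interneurons, 0.06 in oligodendrocytes and 1.11 in excitatory nuclei, none of them called. The mean it was set against includes microglia, where it was 5.21. Interneuron-gated nuclei had 0 calls in either direction, against 8.29% and 6.55%. Oligodendrocyte precursor-gated nuclei had Dnajc14 lower (-1.87), against 2.51%, and 0 higher, against 7.41%.

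Microglia-gated nuclei had 2 members higher, against 12.4% of all genes, and 5 lower, against 14.9%. Hspb3 was at 28.4, 72.4, 18.7 and 41.6 CPM, from 14, 43, 11 and 24 UMIs, and at most 5.74 CPM in any library of another class. The log2 difference was 5.21 (edgeR adjusted p = 5.855e-12), in 4 of 4 libraries. Dnajc28 (1.38) rested on levels under 12 CPM. The 5 lower members were Dnajc12 (-1.71), Dnajc6 (-1.36), Hspa4l (-1.36), Hsph1 (-1.18) and Dnajc27 (-1.07).

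**Figure D3:**
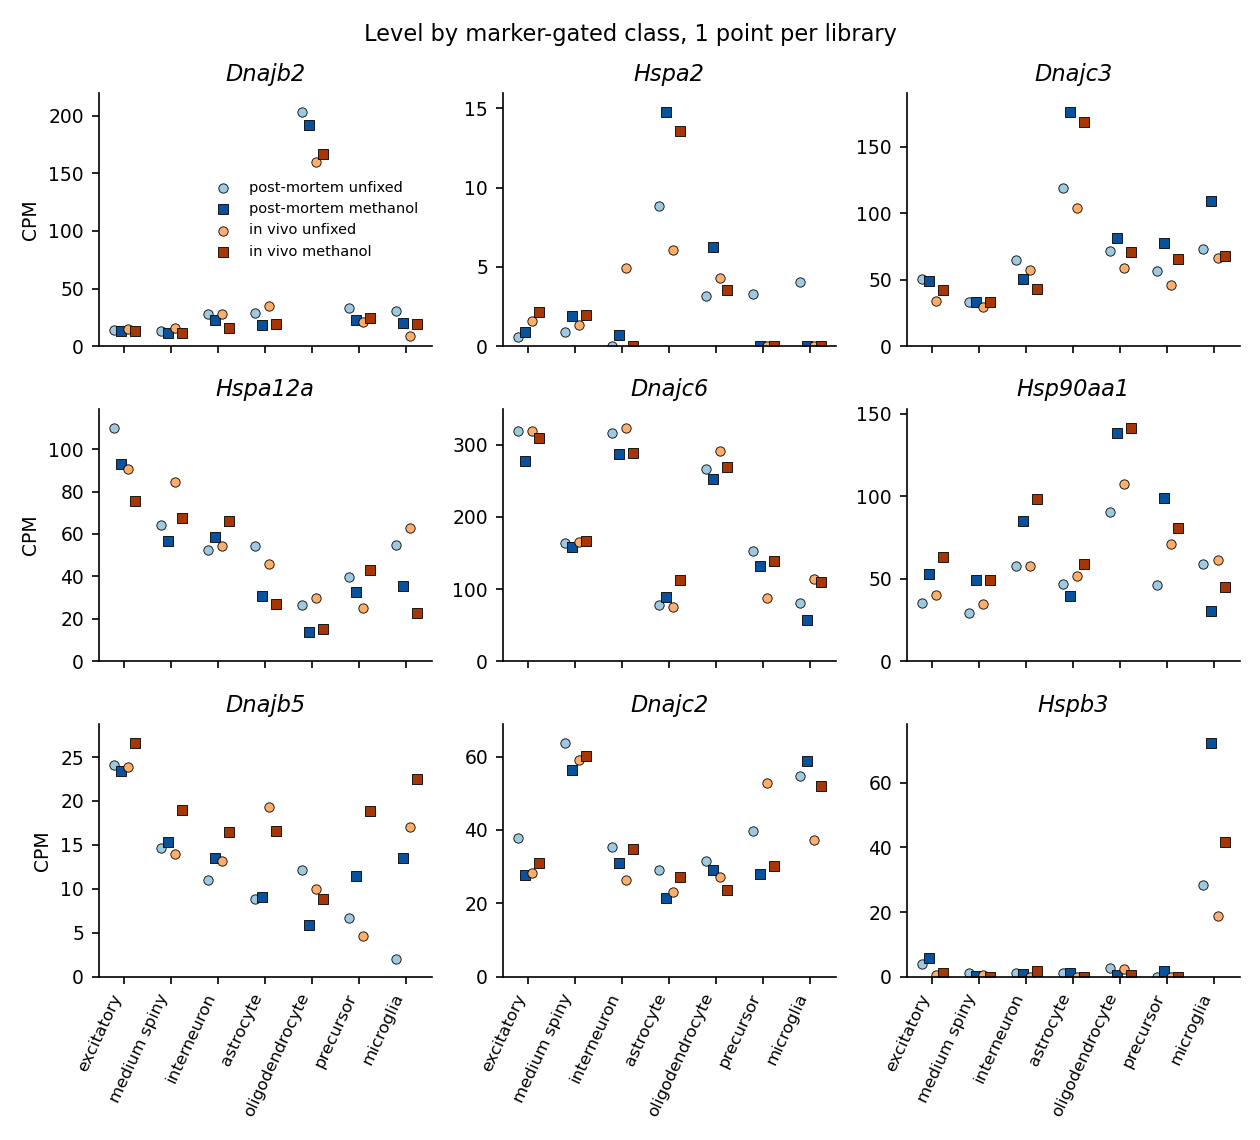
CPM of 9 members by marker-gated class, 1 point per library, each panel from 0. Dnajb2 lies at 160 to 203 CPM in oligodendrocyte-gated nuclei and Hspb3 at 18.7 to 72.4 CPM in microglia-gated nuclei, both apart from every other class.

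In every alternative run for them, 6 of these 24 calls were kept: Dnajb2 and Hspa2 in oligodendrocytes, Dnajc3 and Hspa2 in astrocytes, Hspa12a in excitatory nuclei and Hspb3 in microglia. Not all had the same number of runs: Dnajb2 and Dnajc3 had 13, Hspb3 had 12, and Hspa12a and Hspa2 in each class had 11. The first and the stricter gate left too few excitatory nuclei to use that class. With these 2 gates the other classes were set against a mean without it. With doublets kept, the lower calls of microglia other than Dnajc12 were lost, for example Dnajc6 (-0.55) and Hspa4l (-0.75), as were the calls of Hsp90aa1 (0.90) and Hspa12a (-0.47) in oligodendrocytes. Also lost with doublets kept were Dnajb12 (0.80) and Dnajc24 (0.76) in oligodendrocytes, Dnajc6 in excitatory nuclei (0.93) and astrocytes (-0.80), and both calls of Dnajc14. Library-size scaling took 7 calls under 2-fold: Dnajc2 (0.85), Dnajb5 (0.94), Dnajc6 in excitatory nuclei (0.98), Dnajb12 (0.99), Dnajc24 (0.92), Dnajc27 (-0.77) and Hsph1 (-0.89). With the looser gate Dnajb5 (0.89), Dnajc21 (0.89), Dnajc6 in astrocytes (-0.95) and both calls of Dnajc14 were lost. Dnajc14 in precursors then gave -0.20. Both calls of Dnajc14 were also lost with the first and the stricter gate, that in precursors with 4 markers too, and that of Hspb3 in medium spiny nuclei with the first gate and with no library term. Dnajc27 was lost with 4 markers (-0.99), and DESeq2 lost Dnajc24 (0.99) and Dnajc27 (-0.97). Without the post-mortem methanol library the calls of Dnajc24 (0.96), Dnajc27 (-0.77), Dnajc28 (edgeR adjusted p = 0.2036), Dnajc12 (edgeR adjusted p = 0.1546), Hspb3 in medium spiny nuclei (edgeR adjusted p = 0.9877) and Dnajc14 in precursors (edgeR adjusted p = 0.1179) were lost. Without the in vivo methanol library both calls of Dnajc14 and that of Hspb3 in medium spiny nuclei were lost, and without the in vivo unfixed library those of Dnajc12 and Dnajc27.

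Fixation was finally compared within each class, by the same limit of 1.5-fold in both pairs and with at least 50 UMIs over the 4 libraries. In excitatory-gated nuclei 4 of 46 measured members were called higher (8.7%, against 4.68% of all genes) and 0 lower (against 4.36%). Hspa5 was at 37.0, 81.6, 29.8 and 68.5 CPM, with log2 ratios of 1.14 (0.86 to 1.43) and 1.20 (0.95 to 1.46). Hspa8 was at 53.3, 90.0, 55.5 and 106 CPM (0.75 and 0.93), and Hsp90b1 (0.67 and 0.84) and Hsp90aa1 (0.59 and 0.65) completed the group.

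In medium spiny-gated nuclei, the deepest class in total UMIs of the post-mortem libraries, 4 of 47 members were called higher (against 5.09% of all genes) and 1 lower (against 5.34%). Hspa5 was at 41.9, 104, 34.8 and 81.0 CPM, with log2 ratios of 1.31 (1.16 to 1.46) and 1.22 (1.01 to 1.44). Hspa13 was at 8.88, 17.7, 8.43 and 18.2 CPM (0.99 and 1.10). Hsp90b1 and Hspa8 were also higher, and Dnaja3 was lower (-0.59 and -0.61).

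Astrocyte-gated nuclei had 5 of 46 members higher (against 4.67%) and 3 lower (against 6.02%). Hspa5 was at 78.2, 171, 66.5 and 158 CPM (1.13 and 1.24), and Hsp90b1 at 98.4, 188, 78.5 and 169 CPM (0.93 and 1.10). Dnajb11, Dnajb9 and Hspa13 were also higher, and Hspa12a (-0.81 and -0.74), Dnajb2 (-0.66 and -0.81) and Dnaja3 (-1.18 and -0.65) lower. These 6 rest on 7 to 49 UMIs per library. In interneuron-gated nuclei 2 of 48 members were higher (against 3.47%), Hspe1 (1.19 and 0.79) and Dnajb9 (1.52 and 1.21), each with an in vivo interval that includes 0, and 0 were lower (against 4.23%).

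In oligodendrocyte-gated nuclei 0 of 48 measured members were higher (against 2.73% of all genes), and 3 were lower (against 12.1%): Hspa12a (-0.94 and -0.95), Hspbp1 (-0.81 and -1.09) and Dnaja2 (-0.83 and -0.59). Hspa5 was at 123, 135, 87.4 and 101 CPM there, and Hspa8 at 168, 179, 143 and 175 CPM. Whether these ratios differ from those of the neuronal classes was not tested. In oligodendrocyte precursor-gated nuclei 1 of 36 members was higher (against 3.48%), Hspa8 (0.77 and 1.24), and 2 were lower (against 3.8%), Dnajc11 and Hspd1, both from 20 UMIs or fewer per library.

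Microglia-gated nuclei had 2 of 38 members higher (against 4.82%) and 4 lower (against 6.76%). Hspb3, at the levels given above, had log2 ratios of 1.31 (0.45 to 2.33) and 1.12 (0.07 to 2.33), and Dnajc30 had 0.97 and 0.99. Hspa8 was lower, at 201, 123, 161 and 90.2 CPM, with log2 ratios of -0.71 (-1.17 to -0.26) and -0.83 (-1.36 to -0.34). Hsp90ab1 was at 219, 140, 200 and 127 CPM (-0.65 and -0.66), and both methanol libraries lay below both unfixed ones. Hspa12a and Dnajc21 were also lower. With doublets kept, Hspa8 gave -0.07 and -0.23 and Hsp90ab1 -0.09 and -0.29, and neither was called.

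Neuronal transcripts moved in the same direction in these nuclei. A list of 10 neuronal genes that are no gate markers (Snap25, Syt1 and others) took 0.227%, 0.141%, 0.372% and 0.304% of the UMIs of microglia-gated nuclei, and 9 of 10 genes were lower after methanol in both pairs. In oligodendrocyte-gated nuclei the list took 0.154%, 0.0695%, 0.210% and 0.110%, with 10 of 10 lower. In astrocyte-gated nuclei it took 0.237%, 0.186%, 0.240% and 0.184%, also with 10 of 10 lower. Their part in the levels of Hspa8, Hsp90ab1 and Hspa12a in glial nuclei was not tested.

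**Figure D4:**
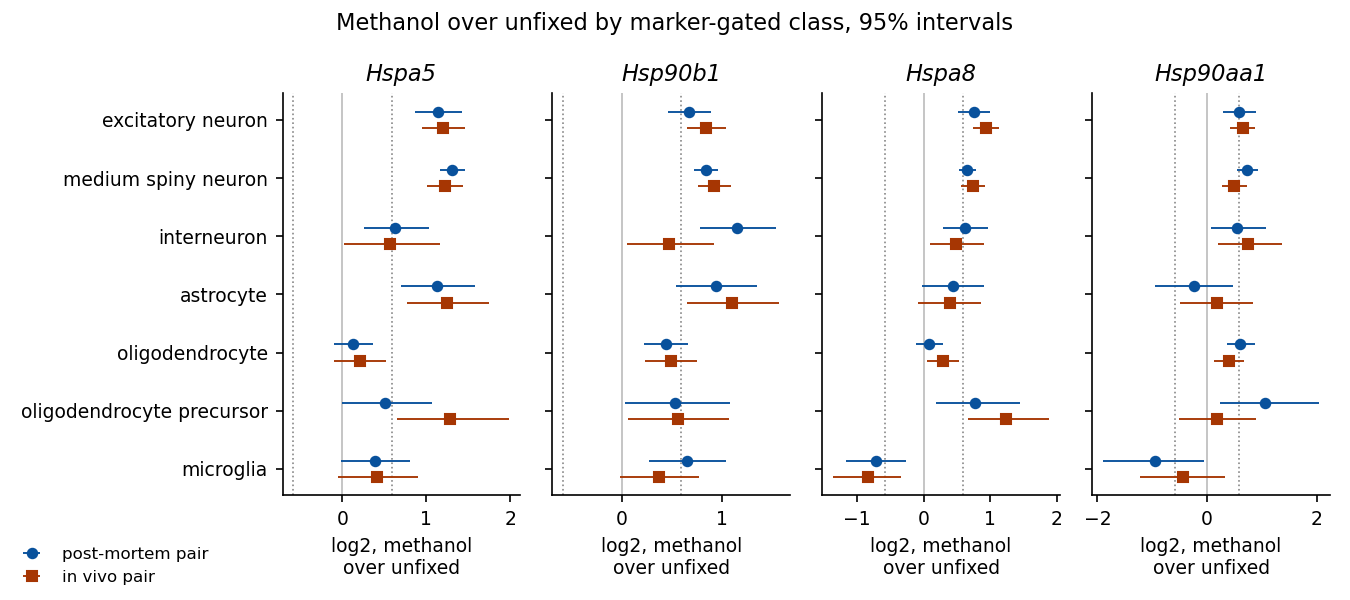
Log2 ratio of methanol over unfixed for Hspa5, Hsp90b1, Hspa8 and Hsp90aa1 in 7 marker-gated classes, post-mortem pair as circles and in vivo pair as squares, with exact 95% intervals for counting error and dotted lines at 1.5-fold. Hspa8 was called higher in excitatory, medium spiny and precursor-gated nuclei and lower in microglia-gated nuclei. It was not called in the other classes, and in oligodendrocyte-gated nuclei it also lies above 0 in both pairs.

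Harvest within classes gave 0 members called higher in any of the 7 classes, against 2.69% of all genes in excitatory, 0.645% in medium spiny, 1.16% in interneuron, 3.26% in astrocyte, 3.31% in oligodendrocyte, 1.5% in precursor and 7.34% in microglia-gated nuclei. There were 0 lower calls in excitatory (against 2.1%), medium spiny (0.579%), oligodendrocyte (0.688%) and precursor-gated nuclei (2.2%). The 3 calls were lower: Hspa5 in interneurons, at 95.4, 148, 60.8 and 90.7 CPM (-0.64 and -0.71, against 1.97% of all genes), Dnajc16 in astrocytes (-0.73 and -0.90, from 8 to 23 UMIs, against 1.77%) and Hspb3 in microglia (-0.59 and -0.78, against 3.55%). Hspa5 in interneurons fell short of the limit in the unfixed pair with 4 markers required (-0.37), with median-of-ratios scaling (-0.58) and with the first (-0.55), looser (-0.50) and stricter (-0.33) gates. Hspb3 in microglia, from 14 and 11 UMIs in the unfixed pair, gave 0.29 there with the stricter gate and 0.0523 with doublets kept. Its call was lost in every gate, doublet and scaling alternative run.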

How the data were processed

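Single-nucleus libraries, 1 per group, were analysed from the UMI counts per gene and barcode that the authors deposited (whole numbers, not normalized). Per the submitters' processing notes mm10 was the genome build, and the aligner, cell caller and strand setting are not given in the sources used here. No comparison used columns of another series.

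Nuclei with at least 500 UMIs, 300 genes and at most 5% mitochondrial UMIs were kept, and doublets called by Scrublet (scanpy 1.11.5, assumed rate 6%) were removed: 12.7%, 8.95%, 15.2% and 10.7%. Counts were summed per library and per class and scaled to CPM, with exact Poisson intervals. Ratios had 0.5 counts added and exact conditional 95% intervals, which cover counting error only, since no group has a second library. Classes were tested with edgeR 4.0.16 (quasi-likelihood, TMM, library block, genes with 10 UMIs in at least 4 sums, Benjamini-Hochberg over all genes tested), and DESeq2 1.42.0 was an alternative. Classes needed 50 nuclei and 100000 UMIs in every library, so a vascular class was left out. The gate first written (4 marker UMIs, 4 times the next class) gave too few excitatory nuclei and a precursor class low in Pdgfra. The gate on different markers replaced it after marker counts had been seen, and the first one is kept as an alternative.

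Members and lists were chosen with earlier results of these data known. Named genes were the 2 members of highest level per family, up to 5 called members per comparison and direction, the heat shock factor and endoplasmic reticulum lists, up to 3 called members per class and direction between classes and up to 2 within classes, and called genes of partner lists. Hspa9, Hspa14, Dnaja2, Dnajb5, Dnajc5, Dnajc8, Dnajc13, Dnajc19, Dnajc24, Dnajc27, Cryab and the members at or near 0 UMIs were added after their values were seen. Coordinates are from GENCODE (mm10), to which all 74 members matched. On simulated counts of 9775 genes, 97% of 2-fold changes were recovered for fixation in all nuclei with 0 unchanged genes called. These counts held Poisson counting error only and no spread between libraries. They therefore cannot give the rate of false calls in real libraries. For astrocytes against the other classes, 15473 genes were simulated with a negative binomial dispersion of 0.02. At adjusted p under 0.05 alone, 67.3% of 2-fold and 92.9% of 4-fold changes were recovered, with 5.42% false calls. Recovery under the rule used for the calls, which adds the 2-fold limit, was not counted. Alternatives were scaling, doublets, depth and level limits, counts added, equal class weights, opposite-strand genes, gates, the fold limit and leaving out each library.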

Additional observations from a re-analysis of the deposited data

Results flagged for a closer look

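Hspa8 after methanol moved in opposite directions in different classes. In microglia-gated nuclei the log2 ratios were -0.71 (post-mortem pair) and -0.83 (in vivo pair), and with doublets kept they were -0.07 and -0.23 and the call was lost. The ratios were 0.75 and 0.93 in excitatory-gated nuclei, 0.66 and 0.73 in medium spiny-gated nuclei, and 0.77 and 1.24 in oligodendrocyte precursor-gated nuclei. Both pairs lay on one side of 0 in each of these classes, and the difference between classes was not tested. In the other gated classes Hspa8 was not called. The share of 10 neuronal genes in microglia-gated nuclei was also lower after methanol, as given in the report, and its part in the result was not tested.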

How the results depend on the processing

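The labels give no replicate numbers, each group holds 1 library, and ratios are given within each pair with no test between groups. In all nuclei the same 5 members were higher after methanol under every scaling, depth, doublet and strand alternative run. The exceptions were the 2-fold limit, which left 0, and equal class weights, given in the report. At a mean of 1 CPM, 7 of 58 members were higher, with Dnajb1 and Hspb3 added, and harvest had 1 lower (Hspb3). The share of all genes at that level is not given here. Median-of-ratios scaling moved the median of all genes by under 0.1 in fixation and took the members' median in the harvest methanol pair to 0.00675. Summed over classes, the calls were 18 higher and 13 lower for fixation and 0 higher and 3 lower for harvest. For fixation, 2.73% to 5.09% of all genes were called higher, by class, and 3.8% to 12.1% lower. For harvest these shares were 0.645% to 7.34% and 0.579% to 3.55%. Shares of all genes are not given for the alternatives that follow. Fixation lower became 8 with the looser gate, 7 with median-of-ratios scaling, 3 with doublets kept and 0 at 2-fold, where higher became 5. Harvest higher became 1 with 4 markers, the first gate and the stricter gate (8 UMIs, 8 times). The first and the stricter gate left too few excitatory nuclei to use, so their totals cover fewer classes. Harvest lower became 1 with 4 markers, the stricter gate and median-of-ratios scaling, 6 with the looser gate and 0 at 2-fold.

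Calls between classes (15 higher, 9 lower) became 24 higher with no filter on low counts, and lower calls became 3 with doublets kept and 14 with the first gate. The total of the first gate leaves out the excitatory class and sets each class against another mean, so it is not like for like. Shares of all genes are not given for these alternatives. Without 1 library each, higher calls ranged from 11 to 19 and lower calls from 5 to 10. Signs reversed for Hspd1 in precursors (in vivo fixation 0.18 with the first gate, 0.0916 with the looser one), Hspb3 in microglia (unfixed harvest 0.29 with the stricter gate, 0.0523 with doublets kept) and Dnajc21 in microglia (in vivo fixation 0.17 with doublets kept). The causes were not tested. In all nuclei none of the 7 small heat shock proteins reached the level limit.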
